A study of Mus musculus with 6 samples.

Results

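Runs of neighbouring skipped exons are stretches of at least 2 adjacent exons that one transcript of a locus carries and another leaves out as a block. Here a run was a stretch listed both in the form that includes its exons and in the form that skips them, at the same locus, start and end. Across the 6 tumours 7149 stretches were listed in the including form and 7508 in the skipping form, and 4366 had both. These 4366 runs lay in 2307 loci and were part of 26019 exons, introns and runs that were listed with and without. The inclusion of a run is the abundance of the including form as a percent of the abundance of both forms.

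In multi-exon skipping the splice donor before a run is joined to the acceptor after it, so that the exons between are removed together with their introns. Skipping a block whose summed exon length is a multiple of 3 keeps the reading frame downstream when the block lies within coding sequence, while any other length shifts it. Blocks of this kind can add or remove whole segments of a protein, as known from the variable exons of cell surface and cytoskeletal proteins.

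A375, a human melanoma line in long use and labelled wild type, was grafted under the skin of BALB/c nude mice. Mice received ZLD1039, an inhibitor of the histone methyltransferase EZH2, at 100 mg/kg by mouth once a day, or vehicle alone, and both groups are labelled day 27. There were 5 mice in a group, and 3 tumours of each group were sequenced. Bulk tumour RNA was measured, and fewer cells with a transcript cannot be told apart from less of it per cell. The positions in the files run over human chromosomes, and how much RNA of the mouse host was placed on them was not measured. Whether the 3 tumours of a group came from 3 mice is not stated outright, so a p-value covers the spread of these tumours, which may be technical. Nude mice lack T cells, which limits the grafts as a model of a tumour in its usual host.

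The number of runs with a value was 3904, 3837 and 3831 in vehicle tumours 1, 2 and 3 and 3881, 3693 and 3906 in the ZLD1039 tumours. Abundance is in FPKM, a fragment count scaled to transcript length and library size, and the number of sequenced fragments is unknown. ZLD1039 tumour 2 stood somewhat apart. Over 10507 loci its mean correlation of log2(FPKM + 1) with the other tumours was 0.917, against 0.933 to 0.942 for the others, and results that change without it are given with and without it. Over the inclusion of runs it was not apart, with a mean correlation of 0.692 against 0.685 to 0.706. The files give Ensembl identifiers without gene names, so the cell type of the label could not be checked against markers, and most runs are called here by chromosome and position.

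Of the 4366 runs, 2616 in 1652 loci were abundant enough to describe: both forms together averaged 1 FPKM or more, and at least 1 form was listed in every tumour. The other 1750 divided into 1400 with a mean total under 1 FPKM and 350 above it that had neither form listed in at least 1 tumour. Many of the 2616 are not independent: 1260 (48.2%) overlap another run of their locus, and the largest set of overlapping runs holds 12.

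Most runs were pairs of exons. Runs of 2 exons numbered 1869 (71.4%), runs of 3 exons 479 (18.3%), runs of 4 exons 146 (5.58%) and longer ones 122 (4.66%). The longest chain had 25 exons. It lay on the plus strand of chromosome 5 (36984778 to 37038840), with 4613 exonic bases. Its skipping form was listed in vehicle tumour 1 alone, at 0.961 FPKM, beside including forms of 2.10 to 4.47 FPKM in the 6 tumours.

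The exons of a run were of ordinary size, while the genomic width of the runs varied widely. The median exonic length of a run was 261 bases (quartiles 198 and 362), and the 6538 exons of the runs had a median of 110 bases, against 111 for the 11888 single skipped exons that passed the same filter. An exon shared by overlapping runs was counted once for each run that holds it. The genomic span, from the first base of the first exon to the last of the last, had a median of 2016 bases (quartiles 918.5 and 4920) and reached from 149 to 180064. The widest run lay on the minus strand of chromosome 12 (23728595 to 23908658) and held 7 exons in 861 exonic bases. It was included at 88.0, 76.8 and 80.3% in the vehicle tumours and at 79.9, 100 and 82.1% in the ZLD1039 tumours. The groups overlapped there, and the value of 100% came from ZLD1039 tumour 2, where no skipping form was listed and the host locus stood at 6.94 FPKM, against 16.2 to 19.3 FPKM in the other tumours.

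A length divisible by 3 was found for 37.1% of the exons in runs, with shared exons counted once for each run, and for 42.8% of the single skipped exons. This is a description without a test. The summed exonic length was a multiple of 3 in 1181 runs (45.2%). In 420 runs every exon was a multiple of 3, and in 536 of the 1181 no single exon was, so that only the block as a whole had such a length. These shares describe lengths only, since which runs lie in coding sequence is not given by the files.

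Most runs were nearly always included. The mean inclusion over the 6 tumours was at least 90% for 1583 runs (60.5%), between 20 and 80% for 378 (14.5%) and under 10% for 344. The including form was the more abundant in all 6 tumours for 1695 runs (64.8%) and the skipping form for 381 (14.6%). For the other 540 (20.6%) the leading form varied between tumours.

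**Figure D1:**
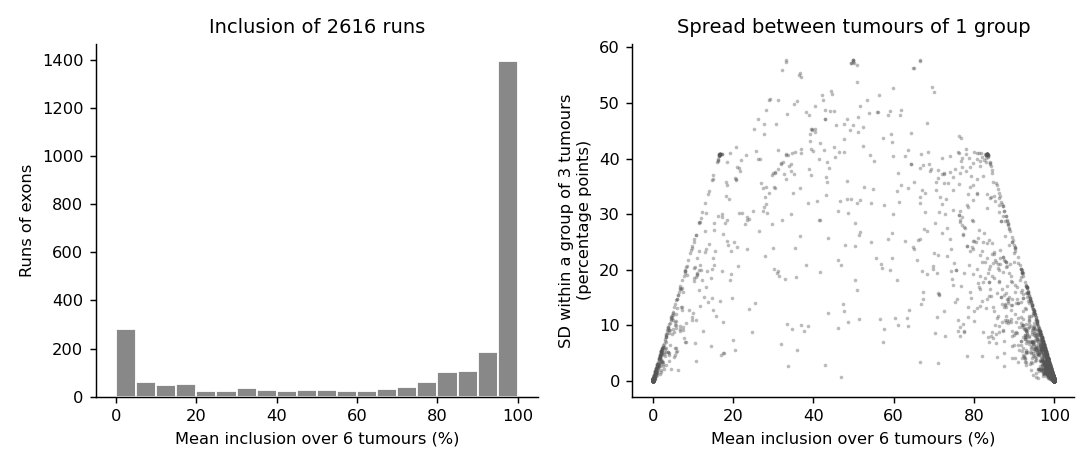
Left, number of runs (y axis) by mean inclusion over the 6 tumours in percent (x axis, bins of 5 points), for 2616 runs; right, the SD of inclusion within a group of 3 tumours, in percentage points, against the same mean, 1 point a run. Most runs sit at the right edge above 90%, and the spread is widest between 20 and 80%.

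Tumours of the same group differed strongly at runs of intermediate inclusion. The SD within a group had a median of 3.42 percentage points over all 2616 runs and of 34.0 points over the 378 runs between 20 and 80%. It was smaller at higher abundance: among those 378 it was 36.9 points for the 234 with a total of up to 5 FPKM, 28.9 for the 113 up to 20 FPKM and 20.4 for the 31 above.

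The most abundant runs of intermediate inclusion show this spread. A run of 3 exons on chromosome 15 (60674541 to 60689537, minus strand, mean total 122 FPKM) was included at 96.9, 81.0 and 39.3% in the vehicle tumours and at 26.2, 99.5 and 38.6% in the ZLD1039 tumours. The including form led in 2 vehicle tumours and 1 ZLD1039 tumour. A pair of exons of 164 and 163 bases on chromosome 17 (40985793 to 40986273, plus strand, mean total 54.0 FPKM) was included at 80.2% in vehicle tumour 2 and 58.6% in ZLD1039 tumour 1, and its including form was unlisted in the other 4. A pair on chromosome 1 (156304504 to 156304709, minus strand, mean total 126 FPKM) was included at 91.3, 93.5 and 94.6% under vehicle and at 99.9, 31.8 and 66.4% under ZLD1039. There the vehicle tumours stood close together and the ZLD1039 tumours lay on both sides of them. A pair on chromosome 2 (65316073 to 65318212, minus strand, mean total 39.8 FPKM) was included at 63.4, 70.0 and 96.2% under vehicle and at 68.1, 64.8 and 73.4% under ZLD1039. Its values were steadier under ZLD1039 (SD 4.33 points) than under vehicle (SD 17.3 points). The other 4 of the 8 most abundant such runs also overlapped between the groups.

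Among the 3 widest runs of intermediate inclusion with a total of at least 5 FPKM, a pair of exons 25698 bases wide on chromosome 2 (224533562 to 224559259, minus strand) was listed in 1 form only in each tumour. It was fully included in vehicle tumour 1 and ZLD1039 tumours 1 and 3 and fully skipped in the other 3. The widest, on chromosome 3 (50004631 to 50036946, plus strand, 4 exons), was included at 99.9, 94.5 and 92.2% under vehicle and at 89.9, 0 and 97.5% under ZLD1039. The value of 0 came from ZLD1039 tumour 2. A run of 3 exons on chromosome 12 (28378728 to 28408595, plus strand) was included at 49.0, 15.3 and 51.1% against 52.8, 58.8 and 23.1%. None of these 3 separated the groups.

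Averaged over all 2616 runs, inclusion did not separate the treatments. The mean was 74.8, 74.8 and 75.2% in the vehicle tumours and 75.2, 74.0 and 75.3% in the ZLD1039 tumours, that is 74.9 ± 0.24% and 74.8 ± 0.73% (SD, n = 3). The lowest value belonged to ZLD1039 tumour 2, and the groups overlapped. The difference of -0.058 percentage points was smaller than the spread in either group (exact two-sided permutation p = 1.0, where 3 tumours against 3 cannot go below 0.1). Without ZLD1039 tumour 2 it was 0.365 points.

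Inclusion rose with the number of exons in the run. Pairs of exons stood at 71.3 ± 0.26% under vehicle and 71.3 ± 0.31% under ZLD1039. Runs of 3 stood at 81.6 ± 0.64% and 80.6 ± 2.03%, runs of 4 at 87.5 ± 1.44% and 88.0 ± 1.77%, and runs of 5 or more at 89.5 ± 1.74% and 90.2 ± 1.05% (SD, n = 3). The order was the same in all 6 tumours for 2, 3 and 4 exons, and the values of 4 and of 5 or more overlapped. Mean inclusion under 20% was found for 20.2% of the pairs and 4.10% of the runs of 5 or more.

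**Figure D2:**
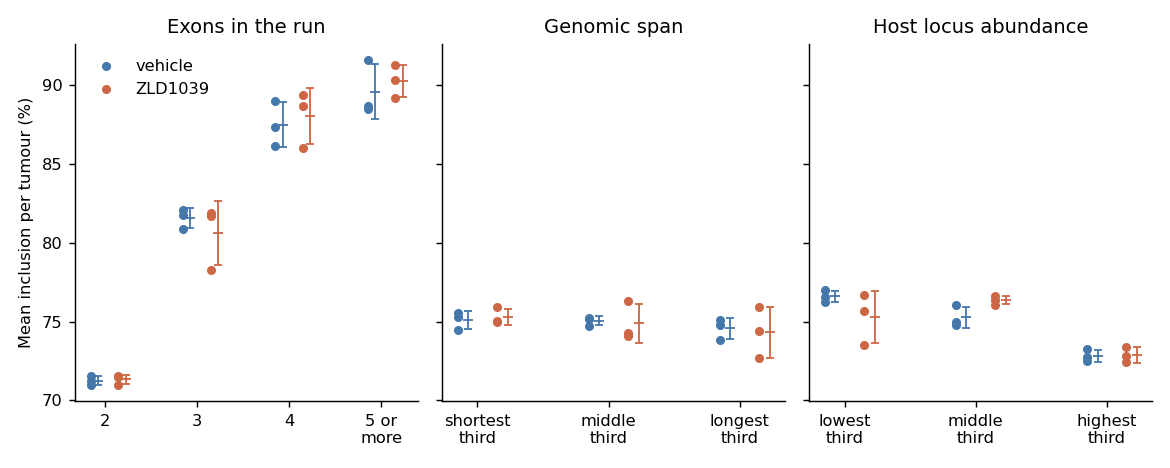
Mean inclusion per tumour in percent (y axis) of runs grouped by number of exons, genomic span and abundance of the host locus (x axis); points are tumours, bars the mean and SD of 3. Inclusion climbs from 71.3% for pairs to about 90.2% for 5 or more exons, while the classes of span stay between 72.7 and 76.3% and vehicle and ZLD1039 overlap in all classes but that of middle host abundance.

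Runs of 3 or more exons exceeded pairs by 13.1, 12.4 and 12.7 points in the vehicle tumours and by 13.0, 10.6 and 13.2 points in the ZLD1039 tumours. The excess was positive in 6 of 6 tumours (mean 12.5 points; exact two-sided sign-flip permutation p = 0.03125, the smallest 6 tumours allow, and Benjamini-Hochberg adjusted p = 0.0391 over 5 such contrasts). The 6 tumours share the same runs, so this p speaks for the agreement of the tumours and not for the spread between runs. The same holds for every sign-flip test below. With 1 run a locus the excess was 14.8 points. It did not differ between the treatments beyond their spread (ZLD1039 minus vehicle -0.46 points, exact permutation p = 0.9), and without ZLD1039 tumour 2 that difference was 0.396.

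The excess of longer chains was widest among runs that span much sequence. Among the 872 runs of the longest span it was 19.3 points (18.0 to 20.8 over the tumours), where pairs were included at 65.0% and longer chains at 84.3%. Among the 872 of the shortest span it was 9.76 points (5.88 to 12.9), with pairs at 74.2% and longer chains at 84.0%. The ranges over the tumours do not overlap, and chains of 3 or more stood near the same level in both classes. By host abundance the excess was 9.97 points in the least, 12.7 in the middle and 15.04 in the most abundant class.

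By span alone the classes differed little when all runs were counted. The 3 equal classes of span, 149 to 1212, 1212 to 3459 and 3460 to 180064 bases, were included at 75.1 ± 0.58, 75.04 ± 0.28 and 74.6 ± 0.66% under vehicle and at 75.3 ± 0.51, 74.9 ± 1.24 and 74.3 ± 1.63% under ZLD1039 (SD, n = 3). Across runs the Spearman correlation of span with mean inclusion was -0.0086 (n = 2616, many overlapping), although span grew with exon number, with a correlation of 0.407. The longest minus the shortest class gave -0.76 points on average (exact sign-flip permutation p = 0.1875). With 1 run a locus it was negative in 6 of 6 tumours, from -3.77 to -1.17 points with a mean of -2.33 (exact sign-flip permutation p = 0.03125), so the relation depends on how loci with several runs are counted. Between the treatments the contrast differed by -0.48 points over all runs (exact permutation p = 0.7) and by -0.26 points with 1 run a locus (exact permutation p = 0.7).

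Runs in the most abundant class of loci were included less than those in the least abundant. The abundance of the host locus, a lower bound taken as the largest of its summed starts, its summed ends and its largest event, had a median of 13.9 FPKM (1.10 to 1444), and the 2 forms of a run together made up a median of 65.7% of it. The least abundant class of hosts (up to 8.83 FPKM) was included at 76.6 ± 0.36% and 75.3 ± 1.63%, and the most abundant (from 22.2 FPKM) at 72.8 ± 0.38% and 72.9 ± 0.49% in vehicle and ZLD1039 tumours (SD, n = 3). The most minus the least abundant class was negative in 6 of 6 tumours, from -4.48 to -1.07 points (exact sign-flip permutation p = 0.03125, adjusted p = 0.0391). Here too the p covers the agreement of tumours that share the same runs, not the spread between runs. With 1 run a locus the mean was -1.76 points and ZLD1039 tumour 2 stood at 0.93 (exact sign-flip permutation p = 0.0625). Across the 2616 runs the Spearman correlation of host abundance with mean inclusion had the opposite sign, 0.075. The treatments differed by 1.37 points in this contrast (exact permutation p = 0.3), and by 0.194 points with classes set by the run's own total (exact permutation p = 0.9).

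The class of middle host abundance was the one in which the groups did not overlap. It was included at 74.9, 74.8 and 76.0% under vehicle and at 76.6, 76.1 and 76.4% under ZLD1039. The difference was 1.10 points (exact permutation p = 0.1, adjusted p = 1.0 over the 15 classes compared by span, host, exon number, frame and position).

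Runs with a summed length divisible by 3 were included slightly more often than the others. They stood at 75.9 ± 0.35% under vehicle and 75.2 ± 0.51% under ZLD1039, and the others at 74.1 ± 0.18% and 74.5 ± 0.92% (SD, n = 3). The excess was 1.48, 1.85 and 1.96 points in the vehicle tumours and 0.355, 1.142 and 0.514 points in the ZLD1039 tumours, positive in all 6 (mean 1.22 points, exact sign-flip permutation p = 0.03125, adjusted p = 0.0391). This p covers the agreement of tumours that share the same runs. Whether so small an excess goes beyond the spread between runs was not tested. The groups did not overlap in this excess, which was 1.09 points smaller under ZLD1039 (exact permutation p = 0.1, adjusted p = 0.4 over 4 contrasts). With 1 run a locus the treatments differed by -0.049 points and the groups overlapped (exact permutation p = 1.0).

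By position along the locus, read from its first to its last base in the direction of transcription, the groups also overlapped. Runs centred in the first of 3 equal segments of their locus were included at 70.5 ± 0.84% and 70.2 ± 1.34%, those in the middle segment at 78.4 ± 0.25% and 78.3 ± 0.47%, and those in the last segment at 75.6 ± 0.63% and 75.7 ± 0.44% in vehicle and ZLD1039 tumours (SD, n = 3). In all 6 tumours the first segment stood lowest and the middle segment highest.

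Runs were included more than single skipped exons of the same loci. In 1423 loci with both kinds, runs exceeded single exons by 14.03, 14.51 and 14.66 points in the vehicle tumours and by 14.55, 14.17 and 14.01 points in the ZLD1039 tumours (mean 14.3 points over loci, exact sign-flip permutation p = 0.03125, adjusted p = 0.0391). The groups overlapped, and no tumour lay below 14.01 points. An exon of a run may also be listed as a single skipped exon, so both kinds share transcripts.

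By chromosome, the level of inclusion differed far more between chromosomes than between treatments. The largest difference between the treatments was on chromosome 21, with 56.7% under vehicle and 51.2% under ZLD1039. It was -5.46 points, and the groups overlapped (exact permutation p = 0.2). Chromosome 21 had the lowest mean, 53.9% over 34 runs in 15 loci (47.5 to 60.8% over the 6 tumours), followed by chromosome 20 with 59.1% over 82 runs in 49 loci (57.8 to 61.1%) and chromosome X with 60.4% over 54 runs in 35 loci (58.6 to 64.0%). The other chromosomes stood between 69.9% on chromosome 9 and 82.0% on chromosome 22. Over all runs the tumours of chromosomes 21, 20 and X overlapped each other in this order, and all of them lay below every tumour of chromosome 9. With 1 run a locus chromosome 20 stood at 62.1% and chromosome X at 70.0%, and chromosome 21 had too few loci to be compared. Chromosome X then reached from 66.3 to 75.9% over the tumours and overlapped chromosome 9 (70.6 to 77.1%). These ranges cover tumours that share the same runs, and the spread between runs of a chromosome was not tested.

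**Figure D3:**
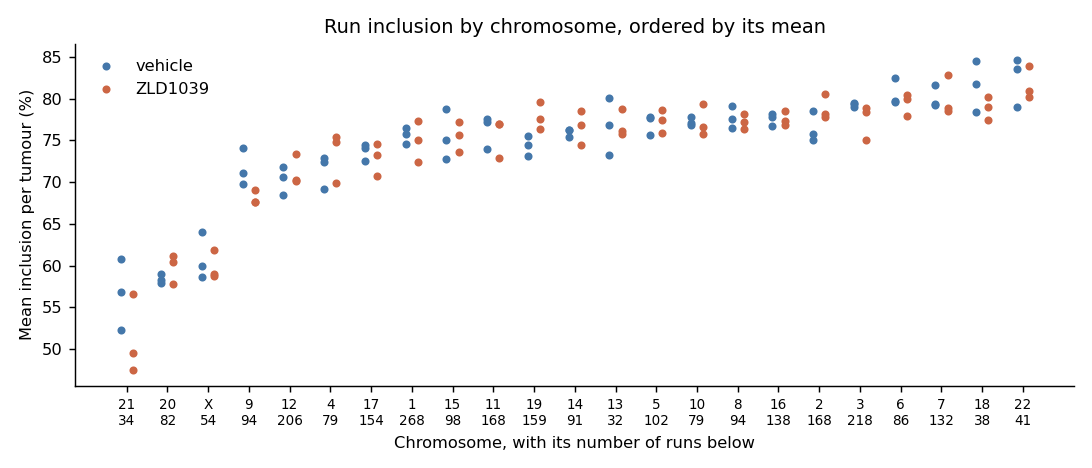
Mean inclusion per tumour in percent (y axis) for each of 23 chromosomes with at least 20 runs, ordered by mean (x axis, number of runs below the name); each point is a tumour. Chromosomes 21, 20 and X lie apart at the left, with every tumour at or below 64.0%, and the 2 groups are mixed on most chromosomes.

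On 3 of 23 chromosomes (13.0%) the groups did not overlap, against 1 of 23 (4.35%) for single skipped exons. Chromosome 19 held 159 runs in 101 loci, included at 73.1, 75.5 and 74.4% under vehicle and at 79.6, 76.3 and 77.6% under ZLD1039, a difference of 3.499 points. Chromosome 9 held 94 runs in 61 loci, included at 74.1, 69.8 and 71.1% against 67.6, 69.1 and 67.6%, a difference of -3.51 points. Chromosome 3 held 218 runs in 130 loci, included at 79.4, 79.0 and 79.4% against 78.9, 75.1 and 78.4%, a difference of -1.83 points. None of them passed adjustment (exact permutation p = 0.1 each, adjusted p = 0.767 over 23 chromosomes).

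Groups without overlap keep the sign of their difference whichever 1 tumour is left out, so only the size of these differences could vary. With 1 tumour left out it ran from 2.62 to 4.25 points for chromosome 19 and from -4.44 to -2.30 for chromosome 9. For chromosome 3 it ran from -2.55 to -0.65, the last being without ZLD1039 tumour 2. With 1 run a locus the groups still did not overlap on chromosome 19 (3.01 points) but overlapped on chromosome 9 (-2.11) and chromosome 3 (-1.53). Chromosome 16 (1.96 points) and chromosome 8 (-1.86) then separated, though their groups overlapped over all runs. Which chromosomes separate thus depends on how loci with several runs are counted. Single skipped exons differed by 1.05, -0.75 and -0.31 points on chromosomes 19, 9 and 3.

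Single runs were tested where the mean inclusion lay over 1% and under 99%, which 1575 runs in 1100 loci met. None passed in limma's test over 13274 exons, introns and runs (smallest Benjamini-Hochberg adjusted p = 0.719), and 0.0% of the 13274 passed. An unadjusted p under 0.05 was given to 33 runs (2.10%), as to 2.09% of all. Without a mean-variance trend in the fit 3 runs passed, and 15 of the 13274 (0.113%).

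Groups without overlap were found at 49 runs higher and 51 lower under ZLD1039, together 6.35% of the 1575. Over all exons, introns and runs the share was 7.12%, with 3.35% higher and 3.77% lower. The median difference of a run was -0.018 points and the median size of a difference 6.40 points, against 5.64 over all. The 95% interval of a difference reached a median of 19.4 points on either side. In the main test the prior SD of a run grew from 3.97 points at a mean inclusion of 90 to 99% to 35.0 points at 40 to 60%, so a complete switch, whose mean lies in the middle, was tested against the widest spread.

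**Figure D4:**
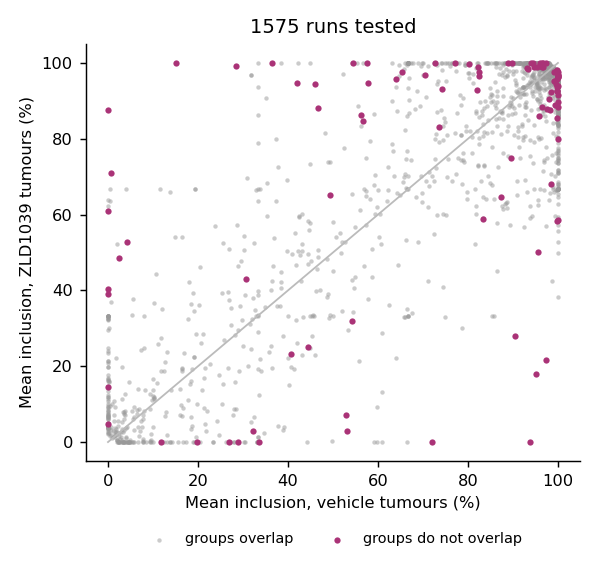
Mean inclusion in percent in the 3 ZLD1039 tumours (y axis) against the 3 vehicle tumours (x axis) for the 1575 tested runs, with a line of equality; dark points are the 100 runs in which the groups do not overlap. Dark points lie on both sides of the line, 49 above and 51 below.

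A change of the leading form in every tumour was rare. At 3 runs the skipping form led in all vehicle tumours and the including form in all ZLD1039 tumours, and at 5 runs the reverse, out of 2616. Over all 18913 exons, introns and runs the same switches were found at 0.116% and 0.169%. Of these 8 runs, 3 were the ones that passed without the trend, and all 8 are described here because they switched.

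The most complete loss of a run was a pair of exons of 15 and 183 bases on chromosome 9 (132678245 to 132686305, minus strand). It was included at 92.7, 93.9 and 94.6% in the vehicle tumours and at 0% in each ZLD1039 tumour. The including form stood at 3.74, 4.21 and 3.16 FPKM under vehicle and was unlisted under ZLD1039, while the skipping form stood at 0.295, 0.274 and 0.182 FPKM under vehicle and 0.275, 1.88 and 0.333 FPKM under ZLD1039. The difference of -93.7 points had a limma adjusted p of 0.719 with the trend and 0.0011 without it. The host locus stood at 5.31 to 8.91 FPKM under vehicle and 4.71 to 7.67 FPKM under ZLD1039, which overlap.

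On chromosome 1 (2118277 to 2121220, minus strand) a pair of 369 and 69 bases was included at 63.1, 76.1 and 76.9% under vehicle and at 0% in all ZLD1039 tumours (-72.1 points, limma adjusted p = 0.719, and 0.0222 without the trend). The including form stood at 3.46, 3.15 and 3.14 FPKM under vehicle and was unlisted under ZLD1039, which did not pass as a change of abundance (limma, adjusted p = 0.26). The skipping form was near 0 in ZLD1039 tumours 1 and 3, at 0.00046 and 0.00097 FPKM, so the 0% there is a share of almost no transcript.

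A pair of 60 and 185 bases on chromosome 2 (173427469 to 173429415, plus strand) went the other way, from 0, 23.7 and 21.7% to 100% in each ZLD1039 tumour (84.9 points, limma adjusted p = 0.719, and 0.0473 without the trend). Both forms together reached at most 0.0047 FPKM in a vehicle tumour and 0.0011 FPKM in ZLD1039 tumour 2. The including form stood at 1.38 and 5.74 FPKM in ZLD1039 tumours 1 and 3. The switch in percent thus rests on 2 tumours with a measurable amount.

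The best measured of the switches was a pair of 159 and 60 bases on the plus strand of chromosome 2 (228211942 to 228217289), with a mean total of 26.9 FPKM. It was included at 51.4, 54.2 and 57.1% under vehicle and at 28.8, 32.7 and 34.0% under ZLD1039. Its including form stood at 11.5, 13.3 and 14.1 against 10.9, 7.36 and 9.97 FPKM, and its skipping form at 10.9, 11.2 and 10.6 against 27.0, 15.2 and 19.4 FPKM. Neither form overlapped between the groups, and the difference was -22.4 points (95% interval -63.2 to 18.4, limma adjusted p = 0.719, and 0.253 without the trend). The SD within the groups was 2.86 and 2.73 points, below the median of 20.4 points for the 31 runs of intermediate inclusion above 20 FPKM.

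Of the other switches, a pair on chromosome 1 (155649719 to 155650247, minus strand) had no including form under vehicle and was included at 97.9, 67.5 and 97.1% under ZLD1039, with at most 2.92 FPKM of that form. Its 2 forms together stood at only 0.0012, 0.182 and 0.466 FPKM in the vehicle tumours and at 0.627 FPKM in ZLD1039 tumour 2. The vehicle value is thus a share of little transcript. On chromosome 12 a pair (57682792 to 57686432, minus strand) was included at 86.0, 99.9 and 99.7% against 29.2, 21.5 and 2.92%. There the including form overlapped between the groups, with 0.0734 to 0.300 FPKM under vehicle and 0.119 to 0.466 FPKM under ZLD1039. The skipping form did not, with at most 0.0489 FPKM under vehicle and 0.710, 1.71 and 3.96 FPKM under ZLD1039. A pair on the plus strand of chromosome 12 (98938220 to 98938839) was included at 100, 73.6 and 97.7% against 44.5, 39.2 and 0.178%, with totals of at most 0.0316 FPKM in vehicle tumour 2 and in ZLD1039 tumours 1 and 2.

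The abundance of each form was tested apart from the share. Of 3639 run forms abundant enough, 2507 including and 1132 skipping, 4 including forms passed in limma's test on log2(FPKM + 1) over 85258 events (Benjamini-Hochberg adjusted p under 0.05), 3 higher and 1 lower under ZLD1039. Over all events 0.0364% passed, 0.027% higher and 0.00938% lower. No skipping form passed (limma, smallest adjusted p = 0.121). The median log2 change was 0.02 for including and 0.03 for skipping forms, against 0.01 over all events. The 4 forms lie in 3 loci, and none of them passed when any 1 of the 6 tumours was left out.

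The largest rise was in ENSG00000198925 on the minus strand of chromosome 2, where 2 nested runs share their including form. The form that carries exons of 52 and 165 bases (220093156 to 220093896) stood at 0.0311, 0.0217 and 0.0328 FPKM under vehicle and at 11.01, 9.447 and 11.33 FPKM under ZLD1039. All 3 ZLD1039 tumours lay far above all 3 vehicle tumours, and limma put the log2 change at 3.49 (SE 0.24, adjusted p = 0.0188). The skipping form stood at 0.0611, 0.238 and 0.0430 FPKM under vehicle and at 0.239, 0 and 5.8e-05 FPKM under ZLD1039.

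Inclusion of this pair was 33.7, 8.36 and 43.3% under vehicle and 97.9, 100 and 100% under ZLD1039. The difference was 70.8 points (95% interval 29.6 to 112, beyond the possible range since limma sets no bounds), with an adjusted p of 0.719 in limma and of 0.0716 on a log2 ratio of the forms. The vehicle percentages rest on totals of at most 0.260 FPKM. The wider run (220092644 to 220093896) adds an exon of 132 bases and was included at 100, 8.37 and 100% under vehicle, so its inclusion overlapped between the groups. The host locus stood at 17.4, 23.0 and 18.4 FPKM against 24.2, 20.3 and 21.7 FPKM and did not pass (limma, adjusted p = 0.888). The including form was at most 0.179% of the value of the locus under vehicle and 45.6 to 52.2% under ZLD1039.

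In ENSG00000143493 on the minus strand of chromosome 1 a run of 4 exons of 91, 69, 104 and 195 bases (212125953 to 212142049) had an including form in the ZLD1039 tumours only, at 7.65, 8.06 and 8.35 FPKM. It was unlisted in all 3 vehicle tumours (limma, adjusted p = 0.0292). No fold is given against unlisted values. Its skipping form was listed in ZLD1039 tumour 1 alone, at 1.68 FPKM, so the vehicle tumours have no inclusion value. The host locus stood at 11.4, 11.7 and 10.8 FPKM against 13.5, 12.9 and 11.6 FPKM (limma, adjusted p = 0.888).

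In ENSG00000171163 on the minus strand of chromosome 1 the including form of a pair of exons of 100 and 85 bases (249144881 to 249145146) stood at 9.95, 12.6 and 12.7 FPKM in the vehicle tumours. It was unlisted in ZLD1039 tumours 1 and 2 and stood at 0.570 FPKM in tumour 3, and the log2 value fell by 3.45 (SE 0.29, limma, adjusted p = 0.0332). The skipping form never exceeded 0.0973 FPKM. The host locus did not follow, with 20.5, 28.7 and 37.3 FPKM against 27.8, 33.7 and 25.8 FPKM (limma, adjusted p = 0.978). In all 3 loci the including form changed by far more than the host locus.

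**Figure D5:**
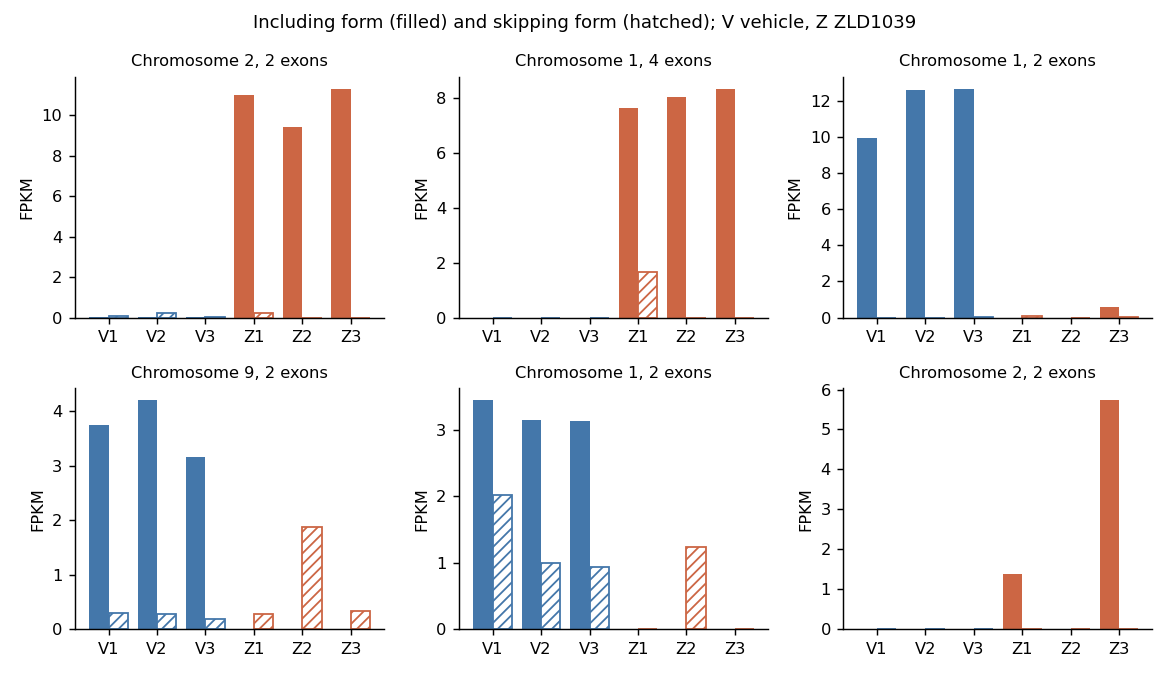
Abundance in FPKM (y axes, each from 0 with its own scale) of the including form (filled bars) and the skipping form (hatched bars) in vehicle tumours V1 to V3 and ZLD1039 tumours Z1 to Z3. The upper row shows runs whose including form passed in abundance, and the lower row runs whose inclusion passed only without the trend, with at most 5.74 FPKM in any tumour.

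The host loci of the runs were tested locus by locus, and none of 2246 passed (limma, smallest adjusted p = 0.66), where 0.0185% of all loci passed. The host loci were not tested as a set. Their median log2 change was 0.03, against 0.02 over all loci.

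Among tested runs of at least 5 FPKM in total, the 8 with the largest higher and the 8 with the largest lower inclusion were taken from runs in which the groups do not overlap, which fixes that they are separate. None of the 16 passed (limma, adjusted p = 0.719 for each). On chromosome 4 (83816845 to 83819215, minus strand) a pair of 83 and 74 bases was included at 42.9, 37.7 and 57.8% under vehicle and at 87.5, 98.0 and 97.6% under ZLD1039. Its skipping form stood at 3.03, 2.66 and 3.58 FPKM against 0.999, 0.0688 and 0.131 FPKM, and the host locus overlapped between the groups around a mean of 20.7 FPKM.

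On chromosome X (70504247 to 70504947, plus strand) the skipping form of a pair of 57 and 114 bases stood at 8.44, 3.97 and 6.30 FPKM under vehicle and was unlisted in all ZLD1039 tumours. Inclusion went from 44.5, 71.1 and 47.7% to 100%. That skipping form had the smallest adjusted p of its kind, 0.121 in limma. The host was one of the more abundant, with 85.5 to 117 FPKM under vehicle and 115 to 220.1 FPKM under ZLD1039.

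A pair of 61 and 93 bases on chromosome 19 (39844646 to 39845790, plus strand) had no including form under vehicle and stood at 2.98, 3.26 and 1.93 FPKM under ZLD1039, an inclusion of 44.2, 48.2 and 28.4%. Its skipping form overlapped between the groups. Of the other 5 higher runs, 1 lies in ENSG00000198925 and the rest varied within a group. A run of 5 exons on chromosome 11 (47193832 to 47196864, minus strand) was included at 23.0, 94.8 and 99.99% under vehicle and at 100% under ZLD1039, so vehicle tumour 1 stood alone below the rest.

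Among the runs with lower inclusion, a pair of 285 and 177 bases on chromosome 9 (132253123 to 132255874, plus strand) was included at 28.9, 88.5 and 41.6% under vehicle and at 8.58, 0 and 0% under ZLD1039. Its including form stood at 1.67, 2.08 and 5.31 FPKM against 0.485 FPKM in ZLD1039 tumour 1 and no listing in the others. The host locus was level, with 14.6 to 24.0 and 12.3 to 22.5 FPKM.

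A pair of 135 and 132 bases on chromosome 7 (100452242 to 100453459, plus strand) was included at 100, 95.1 and 100% against 91.0, 62.0 and 51.1%. On chromosome 17 (5329556 to 5331531, plus strand) a pair of 64 and 141 bases was included at 94.7, 92.9 and 74.3% against 71.4, 61.4 and 60.8%. The gap between the groups at each was smaller than the range within 1 of them.

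The most abundant of the 16 was a pair of exons of 273 bases each on chromosome 9 (117808689 to 117819704, minus strand), with a mean total of 202 FPKM. Its including form stood at 258, 300 and 246 FPKM under vehicle and at 59.2, 107 and 159 FPKM under ZLD1039, without overlap, and did not pass (limma, adjusted p = 0.859). The host value gives no separate measurement here, since in all vehicle tumours and ZLD1039 tumour 2 it is, by its definition, this form itself. Inclusion was 99.92 to 99.95% in the vehicle tumours and 42.4, 97.6 and 99.9% under ZLD1039, and the value of 42.4% belongs to ZLD1039 tumour 1, where the skipping form stood at 80.4 FPKM.

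At the other 3 runs with lower inclusion 1 tumour stood far from the rest of its group. On chromosome X (24169808 to 24170947, plus strand) inclusion was 99.5 to 100% under vehicle and 72.0, 3.75 and 99.4% under ZLD1039. On chromosome 3 (9471511 to 9475246, plus strand) it was 0.396, 0.118 and 100% against at most 0.0996%. On chromosome 2 (242259618 to 242265528, plus strand) it was 100% against 0, 99.8 and 76.2%, where all tumours but ZLD1039 tumour 2 had totals of at most 0.537 FPKM.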

How the data were processed

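RNA of 6 A375 xenograft tumours, 3 under vehicle and 3 under ZLD1039, was analysed from the authors' deposited event lists, which give an FPKM value for each transcript event, per the file headers. HTSeq 0.6.1, bcl2fastq 2.17.1.14 and mm10, a mouse build, are named per the submitters' processing notes. The sources used here do not give the aligner, assembler or event caller. Chromosome 1 reaches position 249214145 in the files, past 195323493, the last annotated position in mm10, and chromosomes are numbered up to 22, so positions are human and are printed as in the files. No human genome, annotation or gene names were used, no sequence is printed, and the planned gene lists and cell type markers, which are symbols, could not be applied.

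Repeated rows were dropped, and forms were summed per locus, start and end. A form missing from a list was given 0, though an unlisted form need not be absent. Exon lengths were read from the event's structure, and where a run had several structures (472 runs) from the most abundant. Depth is unknown, so FPKM was not turned into counts. Inclusion in percent was tested with limma 3.58.1 in R 4.3.3 with a mean-variance trend, over all exons, introns and runs that passed a filter. Their forms had to average 1 FPKM or more in sum, with at least 1 form listed in every tumour. The mean share had to lie over 1% and under 99%. Abundance was tested as log2(FPKM + 1), which understates changes of low values, for events with a group mean of at least 1 FPKM. Both used Benjamini-Hochberg adjustment at 0.05. Means per tumour were compared with exact two-sided permutation tests, and contrasts over all tumours with exact sign-flip tests (Python 3.11.15, pandas 2.3.3, scipy 1.17.1). The scripts were tested on simulated data, in which the inclusion fit with the trend missed changes that the fit without it found. Those changes were simulated only in items of small spread between tumours. The simulation therefore cannot tell which fit suits runs of wide spread.

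Runs were named, at most 1 a locus and rule, if they passed, if they had the 8 largest higher or lower differences without overlap at 5 FPKM or more, if they were the 8 most abundant or the 3 widest between 20 and 80%, and, chosen after their values were seen, if a form passed in abundance, if the leading form switched, if they passed without the trend, or if they were the longest or widest. The members and lists were chosen with earlier results of these data known, and the contrasts by exon number, frame, position and single exons were added after seeing the data. Replicate numbers are shared by the groups. The deviations of same-numbered tumours correlated at -0.0087, 0.037 and 0.033 over the tested runs, so the numbers were not taken as pairs. Alternatives are given in the closing section.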

Additional observations from a re-analysis of the deposited data

How the results depend on the processing

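The count of 0 runs with changed inclusion became 3 without the mean-variance trend (-93.7 and -72.1 points for the runs on chromosomes 9 and 1 at 132678245 and 2118277, and 84.9 points for the run on chromosome 2 at 173427469). It was 0 in the other settings tried, including each tumour left out. The 4 changed forms became 6 without the mean-variance trend, with the same 4 among them. The count was 2 with a pseudocount of 0.1, 0 without a filter, 0 with a replicate block and 0 without any 1 of the tumours. The cause of these changes was not tested. The difference in mean inclusion was 0.195 at 5 FPKM or more, 0.118 with 1 run a locus, -0.368 weighted by abundance, -0.309 over runs with both forms listed in all 6 tumours, and from -0.288 to 0.365 with 1 tumour left out, its sign reversing without vehicle tumour 3 (0.0784) or ZLD1039 tumour 2. The span contrast was 0.028 at 5 FPKM or more and -0.987 to 0.213 with 1 tumour left out, reversing without vehicle tumour 1 (0.114) or ZLD1039 tumour 2. The exon number contrast was -0.93 to 0.396 and the host contrast 0.706 to 2.10 with 1 tumour left out, while classes by the run's own total gave a host contrast of 0.194. Separated chromosomes numbered 6 with the replicate block and 4 to 6 with 1 tumour left out, against 3 in the main setting. Fewer tumours separate more readily, and 3 pairs cannot go below an exact sign-flip p of 0.25. These counts can therefore not be set against the main one. The wider run in ENSG00000198925 gave -0.71 to 45.1 points with 1 tumour left out, -0.71 without vehicle tumour 2, and the run on chromosome 2 at 242259618 gave 1.66 on the log2 ratio scale. The replicate block changed no other call. For the named runs 202 settings kept direction and side of the threshold. Most of these runs were chosen for groups without overlap or for a switch in every tumour. Leaving out 1 tumour could not reverse the direction of those, so the count is no measure of their stability. Settings listed as added, among them equal values counted once and a minimum in both groups, were chosen after seeing the data.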

Other observations

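The files also list runs whose ends are matched only approximately. Of these, 650 had both forms and 266 passed the same filter. They were included at 67.96, 70.2 and 68.9% in the vehicle tumours and at 71.1, 65.8 and 69.6% in the ZLD1039 tumours, that is 69.0 ± 1.11% and 68.8 ± 2.75% (SD, n = 3, exact two-sided permutation p = 1.0). The lowest and the highest value both lay in the ZLD1039 group.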
